A study of Vitis vinifera with 36 samples.

Results

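The genes described here are the late enzymes and the transporter of anthocyanin synthesis in grape berries. They were chosen by gene id from a list of 7, which names dihydroflavonol 4-reductase (DFR), leucoanthocyanidin dioxygenase (LDOX), the anthocyanidin glucosyltransferase UFGT, anthocyanin O-methyltransferases, an anthocyanin acyltransferase and the glutathione S-transferase GST4. Of these, 5 were analysed among the 27751 genes counted, namely DFR (VIT_18s0001g12800), LDOX (VIT_02s0025g04720), UFGT (VIT_16s0039g02230), the O-methyltransferase FAOMT (VIT_01s0010g03510) and the acyltransferase VIT_03s0017g00870. The other 2 ids, the second O-methyltransferase VIT_01s0010g03490 and GST4 (VIT_04s0079g00690), were not analysed here. RNA from the pericarp, which the labels call berries, was sequenced in the grape cultivar ‘Summer Black’ and in its bud sport ‘Nantaihutezao’, which arose from a mutated bud of that cultivar. The labels call the parent ‘Sanbenti’ and the bud sport ‘11-06-25’, and the names were matched by these roles. The 3-year-old vines of both cultivars grew in a plastic greenhouse with no experimental treatment. Berries were taken at veraison (S5), the onset of colouring, then at 7, 14, 21 and 28 days after it (S6 to S9) and at maturity (S10), with 3 biological replicates a, b and c per cultivar and stage, which gave 12 groups and 36 libraries. The labels give veraison and maturity for each cultivar separately, and the paper states that the bud sport matures about 2 weeks earlier than its parent. A cultivar difference at a stage therefore compares berries that may differ in sampling date, and the part of the date was not tested. The berries of each sampling were picked from 2 clusters. How the replicates were spread over clusters and vines is not given in the sources used here. The replicates may therefore share clusters, and the spread between them may be partly technical.

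Anthocyanins are the red, purple and blue pigments of grape skin, and their synthesis normally starts at veraison. DFR reduces dihydroflavonols, LDOX turns the product into the coloured anthocyanidins, and UFGT attaches a glucose that makes the pigment stable. O-methyltransferases then add methyl groups, which give peonidin-, petunidin- and malvidin-type pigments, acyltransferases attach an acyl group to the glucose, and glutathione S-transferases and MATE transporters bring the pigments into the vacuole.

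The annotation of 4 genes named the enzyme directly. In Swiss-Prot, these were dihydroflavonol-4-reductase, leucoanthocyanidin dioxygenase, anthocyanidin 3-O-glucosyltransferase 2 and flavonoid 3',5'-methyltransferase, all of grape. VIT_03s0017g00870 matched vinorine synthase, an acyltransferase of alkaloid synthesis in Rauvolfia serpentina, so that the files gave only its enzyme family, and its role as anthocyanin acyltransferase came from the list. The ids place DFR on chromosome 18, LDOX on 2, UFGT on 16, FAOMT on 1 and the acyltransferase on 3. No coordinates or sequences are given, because no genome of the build of the files was used here.

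The total count on genes per library ranged from 15323095 to 20469617, and the smallest totals were those of ‘Summer Black’ at S5. All 36 libraries were nearest in expression to a library of their own group, and none of the 36 replicate pairs agreed within sampling noise, so every library was counted once. Replicate a of ‘Summer Black’ stood apart at S8 and S9, where the chi-square per degree of freedom of its counts against b and c was 16.7 and 18.8, and 25.3 and 28.8, against 2.82 and 4.77 between b and c. Levels are given as CPM, which are counts scaled to a common library size with the TMM factors of the 36 libraries. The 11 seed genes of a marker list (4 without a read) summed to only 4.41 to 26.4 CPM, against 946 to 1632 CPM for 36 genes of the skin cuticle (11 without a read) and 183 to 1210 CPM for 20 chlorophyll a-b binding genes (1 without a read). In such bulk samples, fewer cells of a type and less RNA per cell cannot be told apart.

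The 5 genes had a common outline, which is shown in the plot of CPM by stage. In ‘Summer Black’, all 5 were lowest at S5, highest at S7 or S8, and lower again at S10. In ‘Nantaihutezao’, all 5 were lowest at S10. The peak was at S5 for FAOMT, at S6 for DFR and LDOX, and at S7 for UFGT and the acyltransferase. At S5, the mean was 88.6% of the peak for DFR and 94.8% for LDOX, but 48.6% for UFGT and 43.8% for the acyltransferase.

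**Figure D1:**
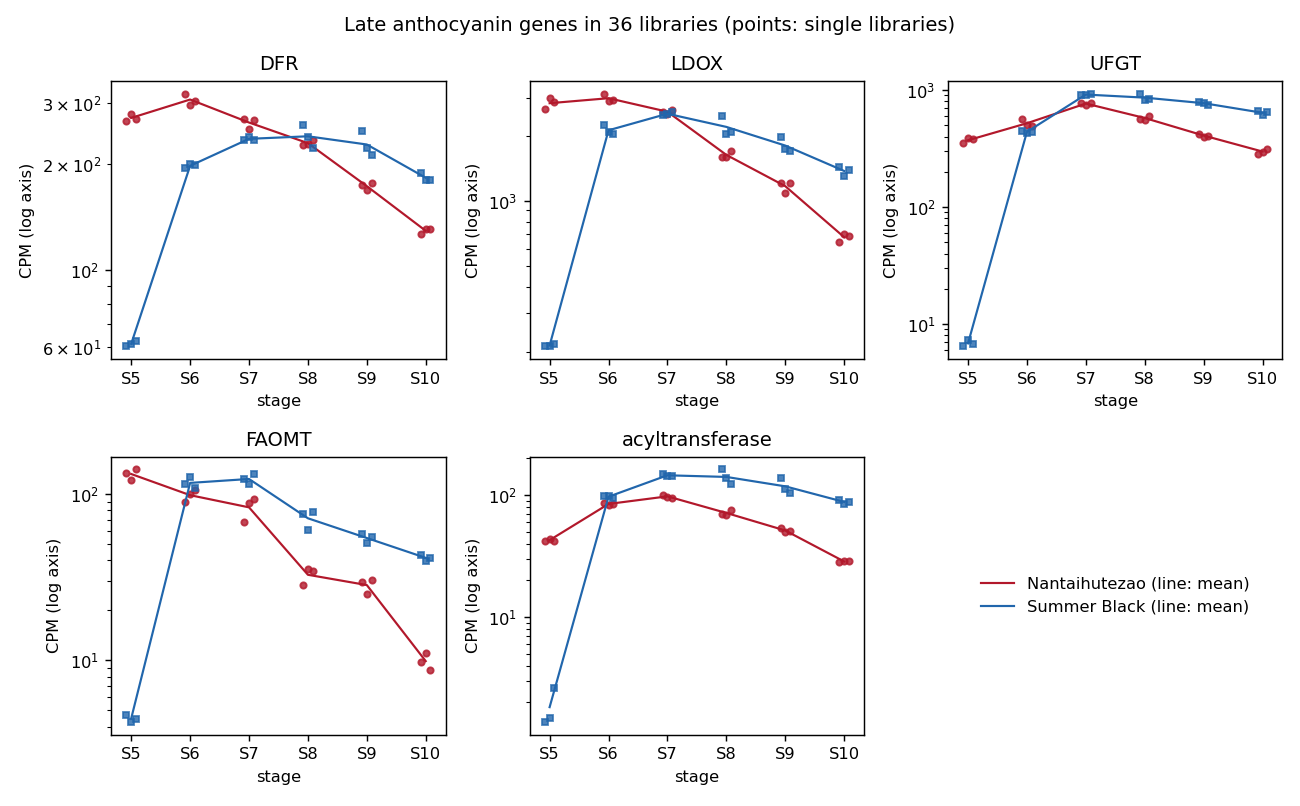
Level of each of the 5 genes in CPM (log axis) at 6 stages, with 1 point per library and lines through the means of 3 libraries, ‘Nantaihutezao’ in red circles and ‘Summer Black’ in blue squares. The blue points at S5 lie below all others in each panel, and at S10 the red points lie below the blue.

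DFR, the first enzyme specific to anthocyanins and proanthocyanidins, had 60.3, 61.4 and 62.4 CPM in replicates a, b and c of ‘Summer Black’ at S5 and 266, 279 and 270 CPM in ‘Nantaihutezao’. At S10, the values were 189, 180.0 and 180.3 CPM in ‘Summer Black’ and 126, 130.3 and 131 CPM in ‘Nantaihutezao’. DFR thus had the smallest range of the 5 genes, with a peak mean 3.92 times the lowest mean in ‘Summer Black’ and 2.37 times in ‘Nantaihutezao’. Its highest group was ‘Nantaihutezao’ at S6, with 306 ± 11.2 CPM (SD, n = 3), and it did not overlap with the next one, ‘Nantaihutezao’ at S5.

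LDOX, which makes the anthocyanidins, was near its peak at veraison in the bud sport only. In ‘Summer Black’ it had 211, 213 and 216 CPM at S5, 2494, 2509 and 2574 CPM at S7, and 1429, 1304 and 1384 CPM at S10. In ‘Nantaihutezao’ it had 2654, 2976 and 2849 CPM at S5, 3129, 2879 and 2934 CPM at S6, and 644, 701 and 687 CPM at S10. In ‘Nantaihutezao’ the mean at S5 was 94.8% of the peak, against 8.44% in ‘Summer Black’. At S7, where the cultivars met, ‘Nantaihutezao’ with 2581 ± 55.0 CPM (SD, n = 3) and ‘Summer Black’ with 2526 ± 42.4 CPM (SD, n = 3) overlapped.

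UFGT, the enzyme that attaches glucose, had the widest range in ‘Summer Black’. There it had 6.45, 7.28 and 6.81 CPM at S5, from 122, 137 and 128 counts, and 907, 911 and 922 CPM at S7, so that the S5 mean was 0.75% of the peak. In ‘Nantaihutezao’ it had 350, 385 and 380.4 CPM at S5 and 772, 749.6 and 774 CPM at S7, and the S5 mean was 48.6% of the peak. At S10, the values were 657, 613 and 644 CPM in ‘Summer Black’ and 286, 296 and 311 CPM in ‘Nantaihutezao’. Of the 12 groups, 3 of the 4 highest were ‘Summer Black’ at S7, S8 and S9, of which the first pair overlapped, and ‘Nantaihutezao’ at S7 overlapped with ‘Summer Black’ at S9.

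FAOMT, which methylates anthocyanins, had the earliest peak and the deepest late decline in ‘Nantaihutezao’. There it had 133, 122 and 141 CPM at S5, 28.3, 35.5 and 34.5 CPM at S8, and 9.84, 11.1 and 8.80 CPM at S10, so that the S10 mean was 7.49% of the peak. In ‘Summer Black’ it had 4.70, 4.25 and 4.47 CPM at S5, 123, 115 and 132 CPM at S7, and 43.1, 39.5 and 41.4 CPM at S10, or 33.5% of the peak. The 3 highest groups were ‘Nantaihutezao’ at S5 and ‘Summer Black’ at S7 and S6, and each overlapped with its neighbour in that order. Replicate a of ‘Nantaihutezao’ at S7, with 68.0 CPM, lay below replicates b and c with 89.0 and 92.8 CPM.

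The acyltransferase was barely expressed in ‘Summer Black’ at S5, with 1.37, 1.49 and 2.61 CPM from 26, 28 and 49 counts. Replicate c stood above the other 2 here, and the SD was 37.4% of the mean, the largest for any of the 5 genes in any group. From S7 to S9 ‘Summer Black’ had means of 145, 141 and 118 CPM, of which neighbours overlapped. In ‘Nantaihutezao’ it had 42.2, 43.7 and 42.0 CPM at S5, 101, 97.0 and 94.5 CPM at S7 and 28.1, 28.69 and 28.75 CPM at S10, where ‘Summer Black’ still had 91.6, 84.3 and 87.2 CPM.

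Single libraries moved the genes together in the late stages of ‘Summer Black’. Replicate a was the highest of the 3 for 4 of the 5 genes at S8, and for 5 of 5 at S9 and at S10. At S8 LDOX had 2472 CPM in replicate a against 2044 and 2069 CPM in b and c, and the acyltransferase had 162 CPM against 137 and 123 CPM. FAOMT was the exception at S8, with 78.3 CPM in replicate c and 75.8 CPM in a.

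The cultivars were compared stage by stage with edgeR's quasi-likelihood test over all genes, and a gene was called if its false discovery rate (FDR, adjusted by Benjamini-Hochberg) was under 0.05 and its log2 fold change over 1 or under -1. Every log2 fold change between cultivars is that of ‘Nantaihutezao’ over ‘Summer Black’. For 1 gene alone, 3 libraries against 3 allow no two-sided exact permutation p under 0.1, and the FDR values come from the fit over all genes.

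At veraison, all 5 late genes were higher in the bud sport, and the libraries of the cultivars did not overlap for any of them, as for 70.4% of all genes tested. UFGT differed most, by 54.4-fold (log2 fold change 5.77, SE 0.06, FDR 6.30e-19). FAOMT followed with 29.6-fold (4.89, SE 0.08, FDR 6.56e-17) and the acyltransferase with 23.4-fold (4.55, SE 0.13, FDR 5.43e-14). LDOX was 13.3-fold higher (3.73, SE 0.04, FDR 8.26e-19) and DFR 4.43-fold higher (2.15, SE 0.04, FDR 2.11e-16). Among all 15848 genes tested at S5, 7.51% were called higher and 8.63% lower, and the median log2 fold change was 4.55 over the 5 genes against -0.02 over all genes. Upper-quartile scaling moved the median of all genes to -0.13, and under it the 5 log2 fold changes ranged from 2.04 for DFR to 5.66 for UFGT. The marker lists differed at this stage too, and their part in the result was not tested. The chlorophyll a-b binding genes summed to 615 to 688 CPM in ‘Nantaihutezao’ and 1022 to 1041 CPM in ‘Summer Black’, the cuticle genes to 1498 to 1632 against 1147 to 1342 CPM, and the seed genes to 11.3 to 13.4 against 4.41 to 4.84 CPM.

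**Figure D2:**
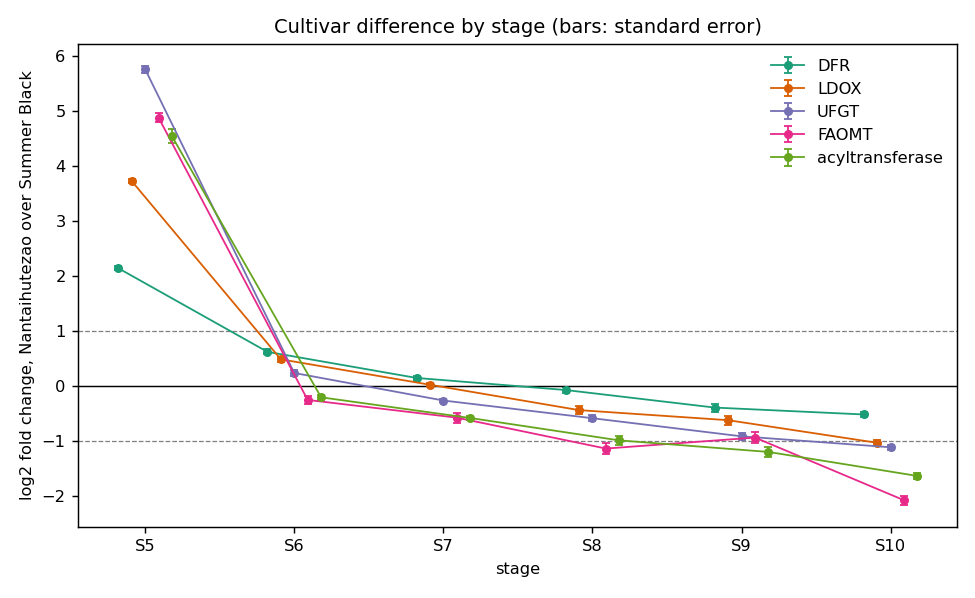
Log2 fold change of ‘Nantaihutezao’ over ‘Summer Black’ for the 5 genes at 6 stages, with bars for the standard error and dashed lines at a log2 fold change of 1 and -1. The values lie between 2.15 and 5.77 at S5 and between -2.07 and -0.51 at S10.

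From S6 to S9 at most 1 of the 5 genes was called at a stage. At S6 none was called, and the libraries of the cultivars did not overlap for any of the 5, as for 50.8% of all genes. The log2 fold changes ran from 0.63 (SE 0.04) for DFR, 0.49 (SE 0.05) for LDOX and 0.24 (SE 0.05) for UFGT to -0.20 (SE 0.04) for the acyltransferase and -0.25 (SE 0.07) for FAOMT, and of all genes tested at S6 2.69% were called higher and 3.89% lower. All 5 had an FDR under 0.05 there and 4 of 5 at S7, as had 40.6 and 47.7% of all genes at the 2 stages.

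At S7, the log2 fold changes of DFR and LDOX were 0.15 (SE 0.04) and 0.03 (SE 0.03), and those of UFGT, FAOMT and the acyltransferase were -0.26 (SE 0.03), -0.57 (SE 0.09) and -0.57 (SE 0.04). None was called, against 3.47% of all genes called higher and 4.55% lower, and LDOX alone of the 5 overlapped between the cultivars, while 56.1% of all genes did not overlap. At S8, FAOMT was called lower in ‘Nantaihutezao’ (log2 fold change -1.13, SE 0.11, FDR 1.34e-05 from edgeR), as were 3.76% of all genes, while 2.71% were called higher. The acyltransferase missed the fold threshold at S8 with -0.98 (SE 0.09) and passed it without replicate c of ‘Nantaihutezao’ (-1.03) or without replicate b (-1.005) or c (-1.07) of ‘Summer Black’. At S9 it was called lower (log2 fold change -1.19, SE 0.10, FDR 1.59e-05 from edgeR), against a background of 1.85% called lower and 3.44% called higher. Neither call at S8 and S9 held with glmTreat, which tests against a log2 fold change of 1 and gave FDR values of 0.94 and 0.39. Without replicate a of ‘Summer Black’, which stood apart at these stages, the value of FAOMT at S8 was -1.09 and that of the acyltransferase at S9 was -1.08, both still called, and that of the acyltransferase at S8 was -0.87. The marker lists differed at some of these stages, and their part in the values was not tested. The chlorophyll a-b binding genes summed to 523 to 537 CPM in ‘Nantaihutezao’ against 728 to 759 CPM in ‘Summer Black’ at S6, 579 to 598 against 1053 to 1210 CPM at S7, 267 to 305 against 486 to 542 CPM at S8, and 250.0 to 291 against 288 to 336 CPM at S9. The seed genes summed to 16.5 to 19.5 against 13.6 to 14.8 CPM at S6, 23.4 to 26.4 against 9.33 to 12.5 CPM at S7, and 16.7 to 19.8 against 12.3 to 16.0 CPM at S8. At S9 the seed genes overlapped, and the cuticle genes summed to 1227 to 1332 against 992 to 1073 CPM.

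DFR was nearest to equal at S8 and S9, with -0.07 (SE 0.06) at S8, where its libraries overlapped, and -0.38 (SE 0.07) at S9. LDOX had -0.43 (SE 0.07) and -0.61 (SE 0.08) at the same stages. UFGT had -0.58 (SE 0.06) and -0.91 (SE 0.06), and FAOMT -0.93 (SE 0.09) at S9. At each stage from S7 to S9, the modifying and glucosylating enzymes had lower log2 fold changes than DFR and LDOX.

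At maturity, all 5 genes had lower levels in the bud sport, and 4 of the 5 were called lower. The libraries of the cultivars did not overlap for any of the 5, as for 54.7% of all genes. FAOMT was 4.20-fold lower (log2 fold change -2.07, SE 0.08, FDR 6.69e-12) and the acyltransferase 3.09-fold lower (-1.63, SE 0.05, FDR 7.13e-13). UFGT was 2.15-fold lower (-1.11, SE 0.04, FDR 2.66e-12) and LDOX 2.04-fold lower (-1.03, SE 0.04, FDR 1.21e-11). DFR missed the fold threshold, at -0.51 (SE 0.04, FDR 1.75e-08). Of the 15283 genes tested at S10, 5.1% were called lower and 3.59% higher. LDOX lost its call without replicate a of ‘Nantaihutezao’ or of ‘Summer Black’, with a log2 fold change of -0.99 in each case, and with glmTreat both LDOX and UFGT (FDR 0.0527) lost theirs. The marker lists overlapped for the chlorophyll a-b binding genes (183 to 214 CPM in ‘Nantaihutezao’, 194 to 200.2 CPM in ‘Summer Black’), the cuticle genes (1167 to 1378 against 1212 to 1237 CPM) and the seed genes (6.89 to 7.63 against 6.04 to 7.37 CPM).

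The change of the cultivar difference between stages was tested in 1 model of all 36 libraries. The interaction of cultivar and stage had an FDR under 0.05 for 5 of 5 genes, as it had for 63.7% of the 16846 genes tested. The difference at S5 minus that at S10 was a log2 value of 2.65 (SE 0.07) for DFR, 4.75 (SE 0.09) for LDOX, 6.16 (SE 0.17) for the acyltransferase, 6.86 (SE 0.09) for UFGT and 6.94 (SE 0.18) for FAOMT. All 5 were called higher, against 10.2% of all genes called higher and 6.7% lower. This contrast uses the same libraries as the comparisons at S5 and S10 and adds no independent samples.

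Between S5 and S7, all 5 genes rose in ‘Summer Black’ and 2 of 5 in ‘Nantaihutezao’. In ‘Summer Black’ UFGT rose by 7.06 on the log2 scale (SE 0.07, FDR 2.43e-23), the acyltransferase by 6.31 (SE 0.16, FDR 2.15e-17), FAOMT by 4.78 (SE 0.11, FDR 7.11e-18), LDOX by 3.56 (SE 0.07, FDR 1.29e-18) and DFR by 1.94 (SE 0.06, FDR 3.92e-16). Of all 16479 genes tested in ‘Summer Black’, 7.56% rose and 11.5% fell over this interval. In ‘Nantaihutezao’ the acyltransferase rose by 1.18 (SE 0.05, FDR 1.29e-15) and UFGT by 1.03 (SE 0.05, FDR 2.32e-14), while 4.92% of the 16265 genes tested rose and 9.41% fell. UFGT fell short of the threshold without replicate a (0.98) and with glmTreat (FDR 0.78). The values of the other 3 genes in ‘Nantaihutezao’ were -0.05 (SE 0.04) for DFR, -0.14 (SE 0.05) for LDOX and -0.67 (SE 0.09) for FAOMT. DFR changed its sign to 0.0029 without replicate b. In ‘Nantaihutezao’ the seed genes rose from 11.3 to 13.4 CPM to 23.4 to 26.4 CPM over this interval. The chlorophyll a-b binding genes fell there from 615 to 688 CPM to 579 to 598 CPM. The cuticle genes fell from 1498 to 1632 CPM to 1083 to 1211 CPM. In ‘Summer Black’ the seed genes rose from 4.41 to 4.84 CPM to 9.33 to 12.5 CPM. The chlorophyll a-b binding genes rose from 1022 to 1041 CPM to 1053 to 1210 CPM, and the cuticle genes overlapped. The part of these lists was not tested.

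From S7 to S10 all 5 genes fell in ‘Nantaihutezao’, and FAOMT alone was called in ‘Summer Black’. In ‘Nantaihutezao’ FAOMT fell by 3.07 on the log2 scale (SE 0.12, FDR 3.98e-16), LDOX by 1.93 (SE 0.05, FDR 2.28e-19), the acyltransferase by 1.77 (SE 0.05, FDR 1.33e-18), UFGT by 1.36 (SE 0.05, FDR 1.48e-16) and DFR by 1.03 (SE 0.04, FDR 2.90e-16), against 9.22% of all genes that fell and 5.9% that rose. DFR lost its call without replicate a (-0.99) and with glmTreat (FDR 0.71). In ‘Summer Black’ FAOMT fell by 1.57 (SE 0.08, FDR 4.74e-12), and the log2 fold changes of the others were -0.88 (SE 0.07) for LDOX, -0.72 (SE 0.10) for the acyltransferase, -0.52 (SE 0.05) for UFGT and -0.37 (SE 0.05) for DFR. Over this interval 9.79% of all genes fell and 6.51% rose in ‘Summer Black’. The chlorophyll a-b binding genes also fell, from 579 to 598 CPM at S7 to 183 to 214 CPM at S10 in ‘Nantaihutezao’. In ‘Summer Black’ they fell from 1053 to 1210 CPM to 194 to 200.2 CPM. The seed genes fell from 23.4 to 26.4 CPM to 6.89 to 7.63 CPM in ‘Nantaihutezao’. In ‘Summer Black’ the seed genes fell from 9.33 to 12.5 CPM to 6.04 to 7.37 CPM. The cuticle genes overlapped between S7 and S10 in both cultivars. The part of these lists in the changes was not tested.

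The bud sport at its veraison and its parent at 7 days after its own veraison had similar levels of some of these genes but not of all. The CPM mean of ‘Nantaihutezao’ at S5 was 1.37 times that of ‘Summer Black’ at S6 for DFR, 1.33 times for LDOX, 1.13 times for FAOMT, 0.848 times for UFGT and 0.441 times for the acyltransferase, given without a test.

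Levels of different genes were compared on the FPKM scale of the authors, which accounts for transcript length. LDOX was the highest of the 5 in all 12 groups by mean FPKM, and UFGT was the second in 11 of them. The exception was ‘Summer Black’ at S5, with means of 182 FPKM for LDOX, 56.9 for DFR, 7.51 for FAOMT, 6.07 for UFGT and 1.82 for the acyltransferase. In ‘Nantaihutezao’ at the same stage the means were 2524 FPKM for LDOX, 324 for UFGT, 245 for DFR, 216 for FAOMT and 41.0 for the acyltransferase. The acyltransferase was the lowest of the 5 up to S7 in both cultivars, and FAOMT was the lowest from S8 to S10.

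**Figure D3:**
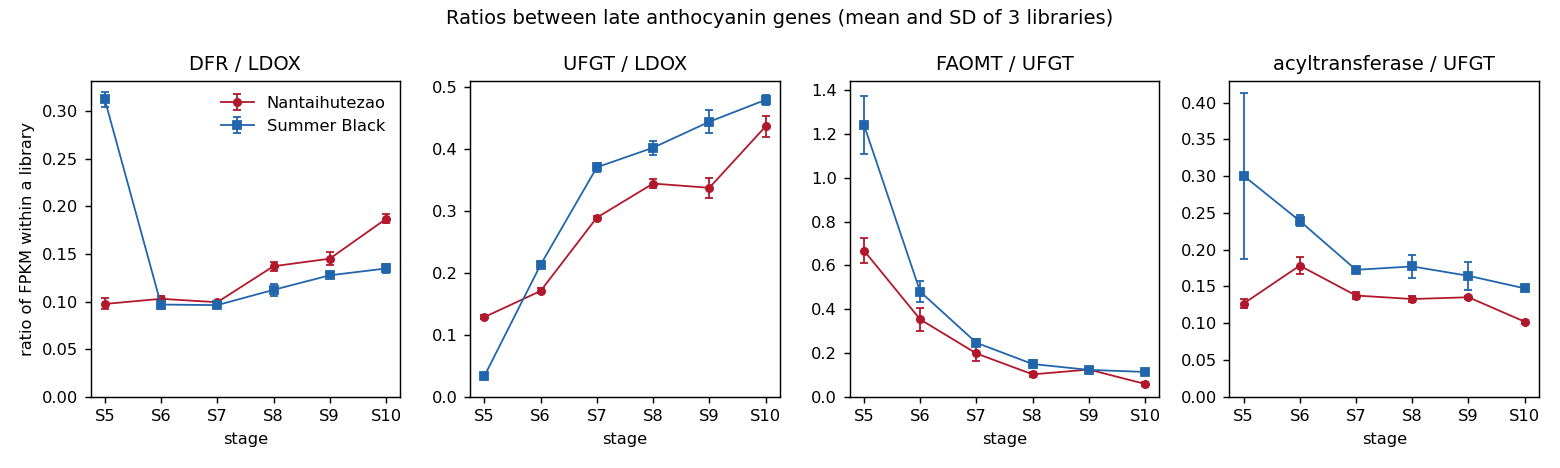
Ratio of the FPKM values of a pair of genes within a library, as mean and SD of 3 libraries, at 6 stages in ‘Nantaihutezao’ (red circles) and ‘Summer Black’ (blue squares). UFGT gained on LDOX and FAOMT lost against UFGT from S5 to S10 in both cultivars.

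The proportions between the enzymes shifted with ripening, and the ratios of FAOMT to UFGT and of UFGT to LDOX moved the same way in both cultivars, as the plot of FPKM ratios shows. FAOMT had 0.667 ± 0.0579 times the FPKM of UFGT in ‘Nantaihutezao’ at S5 and 0.0586 ± 0.0081 times at S10 (SD, n = 3), and 1.24 ± 0.133 against 0.113 ± 0.000621 times in ‘Summer Black’. UFGT had 0.128 ± 0.00281 times the FPKM of LDOX at S5 and 0.436 ± 0.0165 times at S10 in ‘Nantaihutezao’, and 0.0333 ± 0.00182 against 0.479 ± 0.0076 times in ‘Summer Black’. For both ratios the libraries of S5 and of S10 did not overlap in either cultivar, so that the methylating enzyme lost against the glucosylating one, and the latter gained on LDOX. From S5 to S10 the ratio of DFR to LDOX rose from 0.0975 ± 0.00575 to 0.187 ± 0.00473 in ‘Nantaihutezao’ (SD, n = 3). In ‘Summer Black’ it was 0.312 ± 0.00794 at S5 and 0.135 ± 0.00513 at S10 (SD, n = 3), and the fall came between S5 and S6. At S6 and S7 the means lay between 0.0963 and 0.103 in both cultivars, and from S7 to S10 they rose at each stage in both. The ratio of the acyltransferase to UFGT was higher in ‘Summer Black’ than in ‘Nantaihutezao’ in every library at each stage, with means of 0.147 against 0.102 at S10.

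Near copies that could share reads with these genes carried few counts. DFR shared its KEGG orthology number with 5 other genes, of which 3 had no read and none had more than 2 counts in a library. FAOMT shared its number with VIT_01s0010g03460, which had at most 41 counts in a library, and VIT_01s0010g03470, which had at most 2. Of 4 genes with the Swiss-Prot entry of the acyltransferase, 3 had no read and the other had at most 15 counts. No other gene carried the number of LDOX or UFGT.

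The rest of the pathway was read from a list of 35 genes, of which 27 were analysed. At S5, 22 of these passed the filter on low counts, and 15 of them were called higher in ‘Nantaihutezao’ and 1 lower, where 7.51% of all genes were called higher and 8.63% lower. At S10, 1 of 24 was called higher and 14 lower, against 3.59 and 5.1% of all genes. In between, 1 gene was called higher at each stage, against 2.69, 3.47, 2.71 and 3.44% of all genes at S6 to S9, and 0, 4, 7 and 7 of 24, 24, 24 and 25 were called lower, against 3.89, 4.55, 3.76 and 1.85%. The list was chosen with earlier results of these data known. Some of its genes passed the filter only through the cultivar where they were higher, so its counts are a description.

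**Figure D4:**
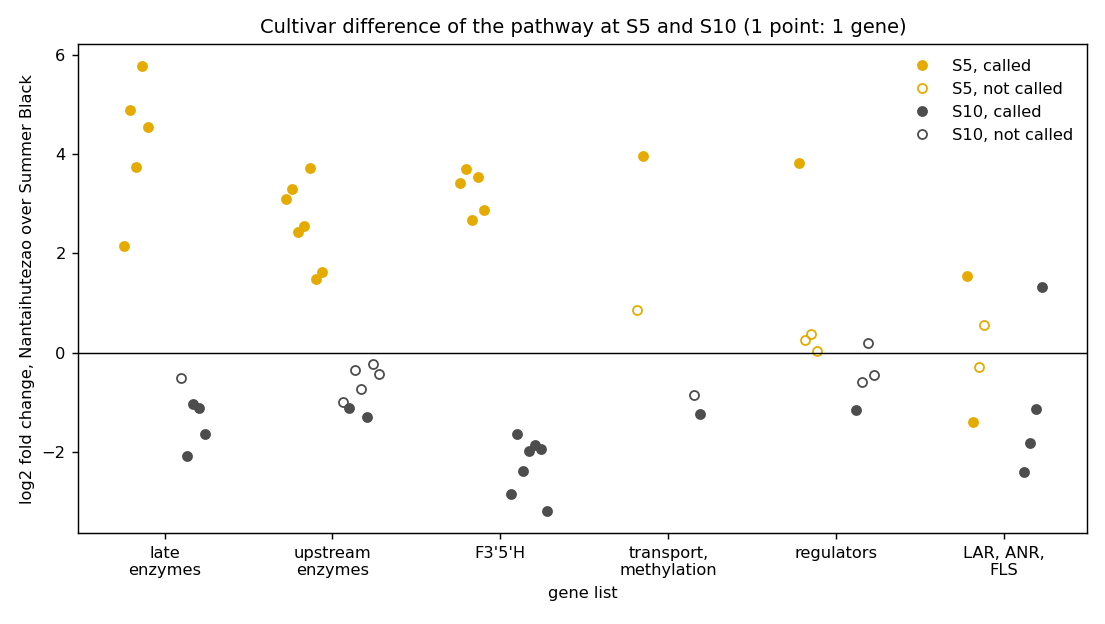
Log2 fold change of ‘Nantaihutezao’ over ‘Summer Black’ at S5 (yellow) and S10 (grey), with 1 point per gene tested, for the 5 late enzymes and the lists of the pathway, filled where the gene was called. At S5 the called points of the enzymes, the F3'5'H genes, MATE transporter and MYBA3 lie above 1, and at S10 most lie below 0.

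Of the upstream enzymes, which build the flavonoid skeleton, 7 of 7 were called higher in ‘Nantaihutezao’ at S5, where 7.51% of all genes were. At S10, 2 of 7 were called lower, against 5.1% of all genes. The chalcone synthase VIT_05s0136g00260 had log2 fold changes of 3.31 (SE 0.03) and -1.11 (SE 0.04) at the 2 stages, and the flavanone 3-hydroxylase VIT_04s0023g03370 had 3.72 (SE 0.05) and -1.29 (SE 0.06). The other 5 had values of 1.49 to 3.10 at S5 and of -0.98 to -0.23 at S10. None of the 7 was called at S6, S7, S8 or S9, where 2.69, 3.47, 2.71 and 3.44% of all genes were called higher. At these stages 3.89, 4.55, 3.76 and 1.85% were called lower.

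The flavonoid 3',5'-hydroxylases (F3'5'H), which direct the pathway to delphinidin-type pigments, were called in most stages. All 5 that passed the filter at S5 were called higher in ‘Nantaihutezao’, where 7.51% of all genes were. At S6 to S10, 0, 3, 6, 7 and 7 of 7 were called lower, against 3.89, 4.55, 3.76, 1.85 and 5.1% of all genes. At S5, VIT_06s0009g02860 passed the filter only through ‘Nantaihutezao’, with 22, 43 and 26 counts against 4, 1 and 9 in ‘Summer Black’. VIT_06s0009g02920 did so too, with 143, 166 and 159 counts against 13, 18 and 9. Replicate c of ‘Summer Black’ lay under the minimum count for it. At S10, VIT_06s0009g02880 (6, 10 and 4 against 24, 30 and 25 counts) and VIT_06s0009g03050 (0, 0 and 5 against 11, 25 and 12) passed only through ‘Summer Black’. For such genes the filter favoured the direction, so these counts of calls are a description. VIT_06s0009g02840, the F3'5'H with the highest CPM, had 113, 124 and 119 CPM in ‘Nantaihutezao’ and 9.30, 8.61 and 9.74 CPM in ‘Summer Black’ at S5 (log2 fold change 3.69, SE 0.06, FDR 1.32e-16). At S10 it had 70.1, 71.3 and 66.4 CPM against 212, 232 and 202 CPM (-1.64, SE 0.05, FDR 3.05e-13). These genes lie in a cluster of near copies, so their single values are uncertain where reads could have been shared.

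Among the transporters and regulators tested, 1 of 2 MATE genes and 1 of 4 regulators were called at S5 and S10. Of all genes, 7.51% were called higher at S5 and 5.1% lower at S10. The list held 6 regulators, of which 4 were analysed, so the others were not tested. The MATE transporter VIT_16s0050g00910 was higher in ‘Nantaihutezao’ at S5 by 3.96 on the log2 scale (SE 0.05, FDR 3.15e-18) and lower at S10 (-1.24, SE 0.05, FDR 2.66e-12), whereas VIT_16s0050g00930 had values of the same signs under the fold threshold, 0.86 (SE 0.04) and -0.85 (SE 0.04). MYBA3 (VIT_02s0033g00450), a MYB gene of the cluster known for berry colour regulators, had 374, 421 and 362 CPM in ‘Nantaihutezao’ and 30.3, 30.8 and 21.4 CPM in ‘Summer Black’ at S5 (3.81, SE 0.10, FDR 1.44e-14). At S10 it had 60.6, 73.0 and 69.9 CPM against 144, 147 and 157 CPM (-1.15, SE 0.06, FDR 1.27e-10), a call that glmTreat did not keep. The authors' FPKM values of MYBA3 were less even between replicates. At S10 they were 90.7, 231 and 109 against 215, 221 and 240 FPKM, and the cultivars overlapped. The 3 other regulators tested were called at neither stage, and the bHLH gene MYC1 (VIT_07s0104g00090) had 0.26 (SE 0.05) at S5 and -0.58 (SE 0.06) at S10.

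The branches that use the same precursors did not share 1 direction. LAR2 (VIT_17s0000g04150), which leads to proanthocyanidins, was lower in ‘Nantaihutezao’ at S5 (log2 fold change -1.38, SE 0.05) as well as at S10 (-1.82, SE 0.11). The flavonol synthase VIT_18s0001g03430 had 0.57 (SE 0.07) at S5 and was the gene called higher at each stage from S6 to S10, with 1.33 (SE 0.10) at S10. LAR1 (VIT_01s0011g02960) had 1.54 (SE 0.08) at S5 and -2.40 (SE 0.53) at S10, where it was at 1.56 CPM or less in every library.

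Likeness among the 5 genes was read from the Pearson correlation r of log2 CPM over the 36 libraries, as a description, since the libraries share stages and cultivars. DFR and LDOX had the highest r of any pair (0.98), followed by UFGT and the acyltransferase (0.98) and by LDOX and FAOMT (0.96). The lowest was that of UFGT and FAOMT (0.75). Without the 3 libraries of ‘Summer Black’ at S5, r was 0.94 for DFR and LDOX, 0.91 for UFGT and the acyltransferase and 0.94 for LDOX and FAOMT, but 0.43 for UFGT and FAOMT. UFGT and the acyltransferase both peaked at S7 in ‘Nantaihutezao’, where FAOMT was past its peak.

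For each gene, the 3 other genes with the highest r were taken among all genes kept over the 36 libraries. The gene most like UFGT was VIT_04s0079g00710, annotated as glutathione S-transferase F11 (r = 0.99, and 0.95 without ‘Summer Black’ at S5). The same gene was the most like the acyltransferase (r = 0.99, and 0.97 without these libraries). It had 22.7, 22.0 and 21.3 CPM in ‘Summer Black’ at S5 and 1588, 1742 and 1635 CPM in ‘Nantaihutezao’ at S5. At S10 the means were 2698 CPM in ‘Summer Black’ and 993 CPM in ‘Nantaihutezao’. It was thus higher in the bud sport at veraison and lower at maturity in every library. It was chosen by its r over these same libraries, so the shared pattern is not a separate finding.

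**Figure D5:**
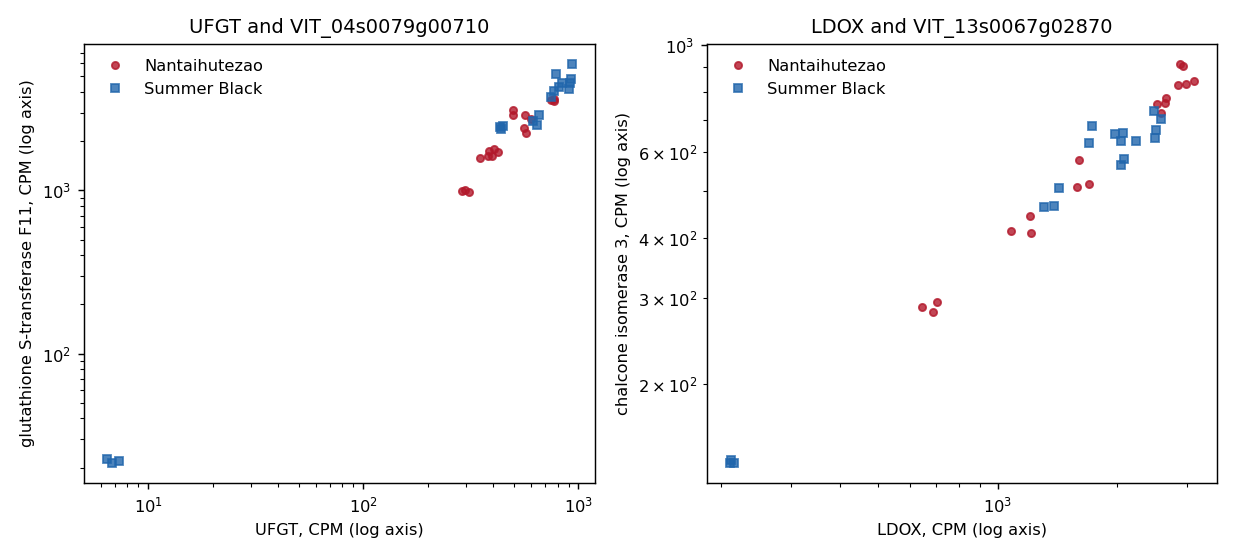
Level of UFGT against the glutathione S-transferase VIT_04s0079g00710 (left) and of LDOX against the chalcone isomerase 3 gene VIT_13s0067g02870 (right) in 36 libraries, in CPM on log axes, ‘Nantaihutezao’ in red circles and ‘Summer Black’ in blue squares. The 3 libraries of ‘Summer Black’ at S5 stand apart at the lower left, and the others follow 1 band.

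UFGT was further like VIT_08s0007g03560, which has no Swiss-Prot entry, and the hexose transporter VIT_18s0122g00850 (both r = 0.98), whose r without ‘Summer Black’ at S5 was 0.88 and 0.81. The acyltransferase was further like the F3'5'H VIT_06s0009g02840 and VIT_08s0007g03560 (both r = 0.98). DFR and LDOX were most like genes of the early pathway, among them VIT_13s0067g02870, annotated as probable chalcone isomerase 3 (r = 0.98 with DFR and 0.99 with LDOX), the chalcone synthase VIT_14s0068g00930 (0.98 and 0.99) and, for LDOX, the phenylalanine ammonia-lyase VIT_06s0004g02620 (0.99). For DFR the third was LDOX itself. FAOMT was most like the glucan phosphorylase VIT_14s0108g01560, the serine carboxypeptidase-like gene VIT_03s0088g00260 and the flavanone 3-hydroxylase VIT_04s0023g03370 (all r = 0.97), of which only the last is on the list of the pathway.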

How the data were processed

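Pericarp RNA of both cultivars was sequenced in 36 libraries. The authors cleaned the reads and used TopHat to align them to the Vitis vinifera genome. The authors deposited unnormalized counts of reads on each gene, 1 column per library; the counting tool was not given in the sources used here. FPKM values, which Cuffdiff scales by length and depth, were also deposited by the authors. Apart from those given for MYBA3, they served only to compare levels between genes. The 111 columns of the authors' DESeq comparisons were not used.

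After filterByExpr (minimum count 10, minimum total 15) and TMM scaling, genes were tested with edgeR 4.0.16 (limma 3.58.1, R 4.3.3) on the 6 libraries of a stage, the 18 of a cultivar or all 36. The standard error (SE) is the absolute log2 fold change over the square root of F. The log2 CPM had a prior count of 2. Named were all 7 listed ids, a pathway list, near copies by KEGG number or Swiss-Prot entry, and the 3 genes most like each member. Members and lists were chosen with earlier results of these data known. On simulated data for the comparison at S5, 97 of 100 genes changed 4-fold and 39 of 100 changed 2-fold were called, with 7 unchanged genes among 15809 tested. As alternatives served upper-quartile scaling, DESeq2 1.42.0, no filter, a block for the replicate letter, leaving out each replicate, all libraries in 1 fit, and glmTreat. Tables and figures used matplotlib 3.10.9, scipy 1.17.1, pandas 2.3.3, numpy 2.4.6 and Python 3.11.15.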

Additional observations from a re-analysis of the deposited data

Results flagged for a closer look

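The cultivar difference of all 5 late anthocyanin genes changed between stages, by the test of the difference itself. Its value at S5 minus that at S10, on the log2 scale, was 2.65 for DFR, 4.75 for LDOX, 6.86 for UFGT, 6.94 for FAOMT and 6.16 for the acyltransferase, with FDR values from edgeR of 9.76e-26 or less. Deviating samples were not tested for within groups, since each held 3 libraries.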

How the results depend on the processing

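Of 575 alternative log2 fold changes of the 5 genes, 561 kept their direction and their side of the threshold, 10 lost the call, 3 gained it and 1 turned its sign. That one was DFR from S5 to S7 in ‘Nantaihutezao’, which ranged from -0.087 to 0.0029 with 1 replicate left out and turned without replicate b. With glmTreat, the number of the 5 genes called went to 0 at each of S8 and S9, to 2 at maturity and to 1 for ‘Nantaihutezao’ S7 over S5, since it asks for a change beyond the threshold. For the same reason the number of all genes called went from 2558 to 1589 at S5, 1015 to 316 at S6, 1236 to 517 at S7, 986 to 337 at S8, 808 to 261 at S9 and 1328 to 637 at S10, and to 1344 and 1476 for ‘Nantaihutezao’ S7 over S5 and S10 over S7 and 1908 and 1554 for ‘Summer Black’. With 1 replicate left out, 1 to 2 of the 5 genes were called at S8 and 1 to 2 for ‘Nantaihutezao’ S7 over S5. The regulator VIT_16s0098g00870, at 0.03 at S5, turned to -0.0785 with upper-quartile scaling, and ranged from -0.0131 to 0.0903 with 1 replicate left out, below 0 without ‘Nantaihutezao’ replicate b or ‘Summer Black’ replicate a. The replicate letters did not pair the samples: none of 18 same-letter pairs correlated over 0.1 in their deviations (range -0.06 to 0.08). With the letter as a block, 5, 0, 0, 1, 1 and 4 of the 5 genes were called from S5 to S10, as without it, and 2553 genes at S5. At S5, upper-quartile scaling called 1006 genes higher of 2603, against 1190 of 2558. The 26 to 137 counts of UFGT, FAOMT and the acyltransferase in ‘Summer Black’ at S5 limit the precision of their folds.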
